A study of Macaca fascicularis with 24 samples.

Results

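Transcript levels of 8 genes of cholesterol synthesis and its feedback control were followed in thoracic aortas from old and from young cynomolgus macaques (Macaca fascicularis). The genes were HMGCS1, IDI1, FDPS, SQLE, MSMO1, NSDHL, EBP and INSIG1, taken by symbol from the platform annotation out of 11963 genes read by the array. They were represented by 17 probe sets, each a group of short probes summarised as 1 value. Whether a probe set also reads other transcripts was not tested. Of the 17, 12 were bright enough to be tested, with at least 1 for each gene. The working name of the set also mentions LDL uptake, but none of the 8 genes encodes a receptor or adaptor that takes up LDL. Genes of uptake and lysosomal export are therefore described as a list of their own.

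Cells make cholesterol from acetyl-CoA through mevalonate, isoprenoid diphosphates, squalene and a series of sterol intermediates. When sterols in the membrane of the endoplasmic reticulum run low, the transcription factors of the SREBP family are carried to the Golgi, cleaved, and raise transcription of nearly every enzyme of this route, so that these transcripts commonly move together. INSIG proteins hold the SREBP escort protein SCAP in the endoplasmic reticulum when sterols are plentiful, and INSIG1 is itself an SREBP target.

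RNA was measured on 24 single-colour human expression arrays, 6 for each combination of age and sex, with biotin-labelled RNA made from aortic total RNA. Old males had a mean age of 20.0 years and young males of 6.6 years, and old females had a mean age of 21.2 years and young females of 7.2 years. The labels give no treatment, no genotype and no age for a single animal. They do not state that the 6 samples of a group are separate animals, so the p-values measure only the spread between these samples, which may be partly technical.

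Before the comparisons, 3 pairs of arrays stood out as near-identical: old females 1 and 4, young females 3 and 4, and young males 3 and 4. The deviations of these arrays from the mean of the others correlated at 0.79 to 0.88, against at most 0.57 in all other pairs, so each pair was averaged and counted as 1 sample. This left 21 samples, 6 from old males and 5 from each other group. A further 7 arrays, making up 6 samples (old males 2 and 4, young male 1, old females 2 and 6, and the averaged pair of young females), correlated with the rest at a median r of 0.81 to 0.83, against 0.88 to 0.93 for the other arrays. These are called divergent below, and the 15 other samples were also analysed alone. The divergent arrays had median deposited intensities of 234.4 to 264.1, against 144.2 to 212.1 for the other arrays. Their log2 ratio between 3′ and 5′ actin control probe sets was 0.79 to 1.73, against -0.25 to 1.15 for the other arrays. The array labelled young male 1 read XIST at a log2 level of 10.3, against 6.09 to 8.14 on the other male arrays and 11.2 to 13.1 on the female arrays, so male comparisons are also given without it. The smooth muscle markers MYH11 and ACTA2 were bright in every sample, at log2 levels of 12.8 to 15.2 and 13.9 to 15.1. Others of the 12 smooth muscle markers were dimmer in some samples, with lowest log2 levels of 8.1 for DES and 9.8 for SMTN and CNN1.

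Levels below are quantile-normalised log2(intensity + 16), except where deposited intensities are named, and a difference of 1 is a doubling. They compare 1 probe set between samples, never different genes with each other. Each gene is represented by its brightest probe set. The median of the probe set means over the samples was the lower limit for testing. HMGCS1 stood at the 78.8th percentile of all probe set means, FDPS at the 77.7th, SQLE at the 71.1st, MSMO1 at the 72nd, EBP at the 73.6th, INSIG1 at the 86.2nd, NSDHL at the 62.1st and IDI1 at the 58.1st. IDI1 and NSDHL were thus the members nearest to the limit. The 5 untested probe sets, of SQLE, INSIG1, IDI1, EBP and NSDHL, had means at the 33.7th to 47.6th percentile.

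**Figure D1:**
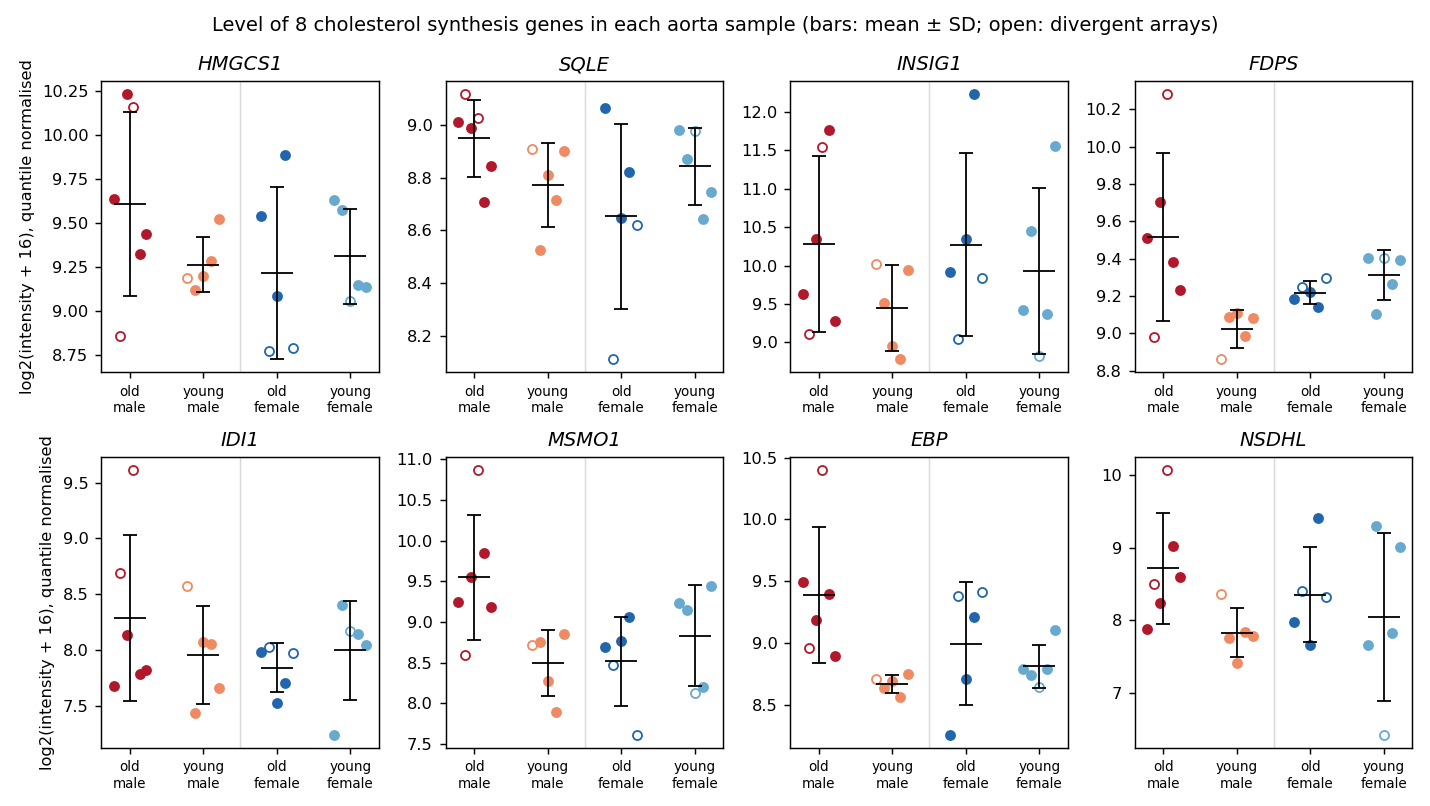
Log2 level of each of the 8 genes (y axis, quantile-normalised log2(intensity + 16)) in each aorta sample, by group (x axis); the horizontal bar is the group mean and the error bars its SD, and open points are samples from divergent arrays. Old males lie above young males without overlap for EBP, and the highest single values of FDPS, IDI1, MSMO1, EBP and NSDHL all belong to old male 4.

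In males, the mean of all 8 genes was higher in old than in young aorta, but no gene passed the test after adjustment over all probe sets. The median log2 difference of the 8 genes was 0.61, against -0.01 for all 6951 genes tested, of which 48.1% had a higher mean in old males. MSMO1, EBP and FDPS, or 3 of the 8 genes, reached an unadjusted p under 0.05, all of them higher in old males. Over all 11108 probe sets, 1.57% did so in that direction and 1.79% in the other. The 8 genes were chosen with earlier results of these data known, so these shares and medians describe the set and do not test it. The adjusted p of every member was 1 (limma, Benjamini-Hochberg over all tested probe sets), and in the whole comparison 2 probe sets, 0.018%, had an adjusted p under 0.05.

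The widest difference between old and young males was that of a sterol-ring enzyme. MSMO1 encodes the methylsterol monooxygenase that takes part in the removal of methyl groups from the sterol ring. Its log2 level in old males ran from 8.60 through a median of 9.40 to 10.87, against 7.89, 8.27, 8.72, 8.75 and 8.85 in young males. Of the 6 old males, 5 lay above every young male, and the lowest, old male 2, lay among them. The difference was 1.05 ± 0.35 (SE), a 2.08-fold higher mean with a 95% interval of 0.33 to 1.78 on the log2 scale (unadjusted p = 0.0066, adjusted p = 1, limma).

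EBP encodes the sterol isomerase that shifts a double bond within the ring. Its brightest probe set read 8.90 to 10.40 in old males, with a median of 9.29, against 8.56, 8.63, 8.69, 8.71 and 8.75 in young males. All 6 old males lay above all 5 young males, and the SD within the group was 0.55 in old males, against 0.073 in young males. Over all tested probe sets, 0.315% were separated in this direction without overlap and 0.342% in the other. The difference was 0.72 ± 0.24 (SE; unadjusted p = 0.0070, adjusted p = 1, limma). The other tested EBP probe set did not show it: old males averaged 8.40 ± 0.54 and young males 8.37 ± 0.46 (SD), a difference of 0.04 ± 0.28 (SE).

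NSDHL encodes the sterol dehydrogenase that acts in the same demethylation as MSMO1. It ran from 7.87 through a median of 8.55 to 10.07 in old males, against 7.40, 7.76, 7.79, 7.84 and 8.36 in young males. Here 4 of the 6 old males exceeded all young males, and the difference of 0.89 ± 0.44 (SE) was not past an unadjusted 0.05 (unadjusted p = 0.058, adjusted p = 1, limma). SQLE encodes squalene epoxidase, an oxygen-dependent and rate-controlling step upstream of the sterols. It read 8.71 to 9.12 in old males, the narrowest spread of the 8 genes there, against 8.52 to 8.91 in young males. The groups overlapped, with a difference of 0.18 ± 0.16 (SE), with its other tested probe set at 0.22 ± 0.34.

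FDPS and HMGCS1 belong to the mevalonate and isoprenoid steps. FDPS encodes farnesyl diphosphate synthase, which supplies the precursor of squalene and of protein prenylation. It ran from 8.98 through a median of 9.45 to 10.28 in old males, against 8.86, 8.98, 9.08, 9.09 and 9.11 in young males. As with MSMO1, only old male 2 fell within the range of the young males. The difference was 0.49 ± 0.18 (SE; unadjusted p = 0.012, adjusted p = 1, limma).

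HMGCS1 encodes the cytosolic HMG-CoA synthase, which makes the substrate for mevalonate formation, and its tested probe sets differed in how far the groups were apart. On the brighter one, old males read 8.86 to 10.23 and young males 9.12 to 9.52, an overlap, with a difference of 0.35 ± 0.24 (SE). On the dimmer one, old males read 9.17 to 10.38 and young males 8.53 to 9.10, with no overlap and a difference of 0.63 ± 0.27 (unadjusted p = 0.027, adjusted p = 1, limma). IDI1, the isomerase that balances both isoprenoid diphosphate building blocks, read 7.68 to 9.61 in old males and 7.43 to 8.57 in young males. The highest values of IDI1 in each male group, old males 4 and 2 and young male 1, all came from divergent arrays, and its difference was 0.33 ± 0.31 (SE).

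INSIG1, the feedback regulator, had the largest spread of the 8 genes within old males. Its log2 levels there were 9.11 at the lowest, 9.99 at the median and 11.77 at the highest (SD 1.15), against 8.79, 8.96, 9.51, 9.94 and 10.02 in young males (SD 0.56). The difference of 0.84 ± 0.57 (SE) had a 95% interval of -0.35 to 2.03, and the other tested probe set gave 0.63 ± 0.46.

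The male values depended in part on single samples. Old male 4, from a divergent array, had the highest level of all 21 samples for 5 of the 8 genes. Without it the male median of the 8 genes was 0.43, MSMO1 was 0.79 higher, EBP 0.52 and FDPS 0.34, and the same 3 genes were under an unadjusted p of 0.05 (0.020, 0.020 and 0.033, limma), while IDI1 came to 0.07. Without any divergent sample the median was 0.49, with MSMO1 at 1.02 (unadjusted p = 0.0018, limma), EBP at 0.58 and FDPS at 0.39, and IDI1 at 0.05. Without young male 1, the array with the XIST reading, the median stayed at 0.61, MSMO1 was at 1.11 and NSDHL at 1.02 (unadjusted p = 0.044, limma).

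**Figure D2:**
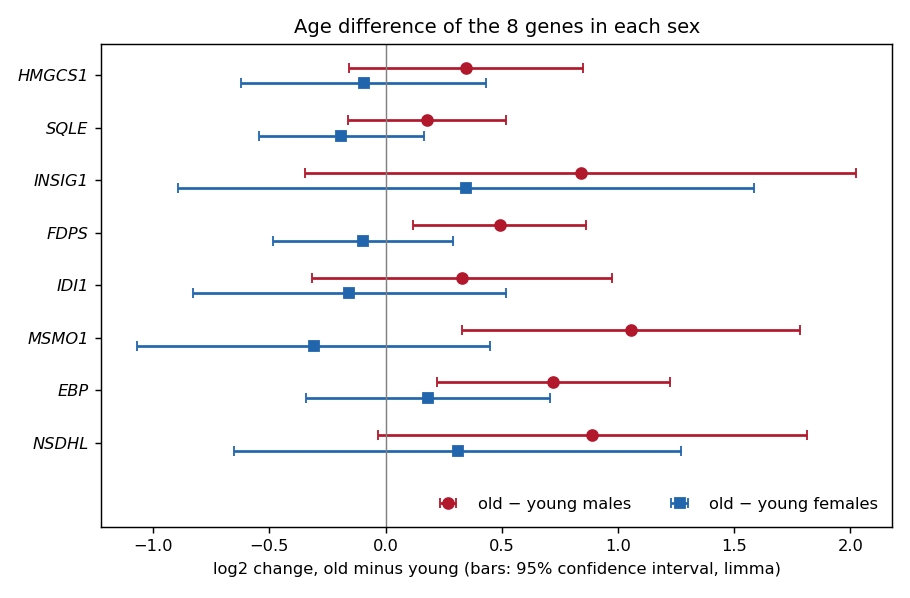
Log2 difference of old minus young (x axis) for each of the 8 genes (y axis), in males (circles) and in females (squares); bars are 95% confidence intervals from limma. In males all 8 points lie right of 0 and the intervals of FDPS, MSMO1 and EBP leave it out, whereas in females 5 points lie left of 0 and every interval spans it.

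In females no such difference was measured. The means of 3 genes (INSIG1, EBP and NSDHL) were higher and those of 5 lower in old than in young females, with a median of -0.10 against -0.02 for all genes tested. None reached an unadjusted p under 0.05, against 1.04% of all tested probe sets in the higher and 1.81% in the lower direction, and every adjusted p was 0.9991 (limma). No tested probe set of any gene passed after adjustment in females (0%). No tested member probe set was free of overlap between the female groups, where 0.162% of all probe sets lay apart with old females higher and 0.18% with old females lower.

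MSMO1 had the largest difference of the lower-mean genes. It read 7.62, 8.46, 8.69, 8.76 and 9.06 in old females, against 8.12, 8.20, 9.15, 9.23 and 9.45 in young females. Young females formed a low pair and a high trio, and 4 of the 5 old females lay in the gap between them, with a difference of -0.31 ± 0.37 (SE) with a 95% interval of -1.07 to 0.45. INSIG1 read 9.04, 9.83, 9.91, 10.35 and 12.23 in old females, against 8.83, 9.37, 9.43, 10.45 and 11.56 in young females. Old females thus held 1 sample far above the others, whereas young females spread upward without a single sample apart. The INSIG1 difference was 0.35 ± 0.60 (SE).

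NSDHL read 7.66, 7.97, 8.31, 8.41 and 9.41 in old females, against 6.42, 7.66, 7.82, 9.0 and 9.30 in young females, a difference of 0.31 ± 0.46 (SE). FDPS was nearly constant in females, with a mean of 9.22 and an SD of 0.060 in the 5 old females, against 9.31 and 0.13 in the 5 young females, with a difference of -0.10 ± 0.19 (SE). SQLE differed by -0.19 ± 0.17, IDI1 by -0.16 ± 0.32, HMGCS1 by -0.09 ± 0.25 and EBP by 0.18 ± 0.25. The signs of these small differences were not stable: without the divergent samples, HMGCS1 and SQLE had a higher mean and EBP and NSDHL a lower mean in old females.

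Averaged over both sexes, 7 of the 8 genes had a higher mean in old aorta, with a median difference of 0.28. Only EBP reached an unadjusted p under 0.05, at 0.45 ± 0.17 (SE; unadjusted p = 0.017, adjusted p = 0.9853, limma), where 1.63% of all probe sets did so in the higher and 2.74% in the lower direction. No probe set of any gene passed after adjustment (0%). Without the divergent samples the EBP difference was 0.23, and with all EBP probe sets averaged it was 0.14.

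The age difference in males minus that in females was then taken as the test of whether the sexes differed. It was positive for all 8 genes, with a median of 0.52 against 0.02 for all genes, and no gene passed after adjustment (all adjusted p = 0.9998, limma, where 0% of all probe sets passed). MSMO1 had the largest value, 1.36 ± 0.51 (SE; 95% interval 0.31 to 2.42, unadjusted p = 0.013, limma). FDPS also reached an unadjusted 0.05, at 0.59 ± 0.26 (unadjusted p = 0.034, limma), but without old male 4 it was at 0.43 (unadjusted p = 0.051, limma). It was at 0.55 both without old male 3 and without young male 1, the array with the XIST reading (both unadjusted p = 0.054, limma). Thus 2 of 8 genes reached an unadjusted 0.05, where 1.16% of all probe sets did so in the positive and 0.801% in the negative direction. The choice of the 8 genes with earlier results known limits this comparison too. Without the divergent samples MSMO1 was at 1.18 (unadjusted p = 0.0092, limma), FDPS at 0.50 and EBP at 0.71 (unadjusted p = 0.023, limma).

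Other genes of the route had a lower median difference in males than the 8 genes. Both lists were chosen with earlier results of these data known, so this contrast between them is a description only. Of 15 further synthesis enzymes listed, 11 were read and 8 were tested. All 8 had a higher mean in old than in young males, with a median of 0.10, but none reached an unadjusted p under 0.05. SC5D, a late sterol desaturase, was at 0.48 ± 0.26 (SE) and PMVK, which phosphorylates mevalonate phosphate, at 0.44 ± 0.22. In females 5 were higher and 3 lower, with a median of 0.08. The difference between the sexes was under an unadjusted 0.05 for ACAT2, which makes acetoacetyl-CoA, at 0.76 ± 0.35 (unadjusted p = 0.039, adjusted p = 0.9998, limma).

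The regulators did not share the pattern of the 8 genes. Of the SREBP control list, 5 of 6 genes were tested, with 2 higher and 3 lower means in old males and a median of -0.03. SREBF1, the SREBP gene tied to fatty acid synthesis, was at 0.45 ± 0.31 (SE) in males. INSIG2, the paralogue of INSIG1, had a lower mean in old than in young animals of both sexes. It was at -0.51 ± 0.32 in males and -0.72 ± 0.34 in females (unadjusted p = 0.043, adjusted p = 0.9991, limma). On its brightest probe set INSIG1 had higher means in old animals of both sexes, but in females its other tested probe set was at -0.10, and the brightest one came to -0.14 without old female 5.

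Of 10 genes of LDL uptake and lysosomal export listed, 6 were read and tested, with 3 higher and 3 lower means in old males and a median of 0.05. VLDLR, a lipoprotein receptor, was at -0.66 ± 0.29 (SE) in males (unadjusted p = 0.033, adjusted p = 1, limma) and -0.40 ± 0.30 in females. MYLIP, the ubiquitin ligase that sends lipoprotein receptors to degradation, was at 0.55 ± 0.46 in males. The fatty acid targets of SREBP, 7 tested of 9 listed, had 6 higher means and 1 lower mean in old males, at a median of 0.36. ELOVL6, a fatty acid elongase, was at 1.36 ± 0.53 (SE; unadjusted p = 0.017, adjusted p = 1, limma) and FASN, fatty acid synthase, at 1.72 ± 0.80 (unadjusted p = 0.043, adjusted p = 1, limma).

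Adipocyte markers also had higher means in old males. Of 15 adipocyte markers read, 12 were tested, and the mean of each was higher in old than in young males. Their median difference was 1.41, and CIDEC and PPARG were under an unadjusted 0.05. The summed deposited intensity of the 15 markers read, not normalised between arrays, ran from 4182.6 to 58112 in old males, against 2478.8 to 54476 in young males. It ran from 3651.5 to 32709 in old females and from 6935.8 to 35770 in young females, where the median of the tested markers was 0.07. The defining adipocyte transcripts ADIPOQ and LEP were dim throughout, at deposited intensities of 5.5 to 252 and 3.2 to 43.1. With PLIN1, which ran from 14.3 to 1058.9, they lay below the limit for testing. The 12 tested markers had means above that limit, and some were bright. Log2 levels ran from 9.35 to 14.69 for FABP4, 7.57 to 12.9 for LPL and 8.62 to 12.86 for CD36. With the mean of the 12 markers as a covariate, MSMO1 was 0.97 higher in old males, EBP 0.52 and FDPS 0.51 (unadjusted p = 0.018, 0.037 and 0.016, limma). NSDHL came to 0.42 and IDI1 to 0.04. In bulk tissue, fewer cells of a type and less RNA per cell cannot be told apart.

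Markers of other cell types also differed between the male groups. All 9 tested endothelial markers of 10 read had a higher mean in old males, at a median of 0.28, with ENG at 0.68 ± 0.24 and TEK at 1.24 ± 0.44 (SE; unadjusted p = 0.0093 and 0.010, both adjusted p = 1, limma). The summed deposited intensity of the 10 markers read ran from 3769.8 to 14390 in old males, against 4148.5 to 6362.4 in young males. Of the 9 tested, 3 had a higher and 6 a lower mean in old females. The age difference in males minus that in females was positive for all 9, at a median of 0.40. Of the 5 tested fibroblast and adventitia markers, 4 had a lower mean in old males, at a median of -0.81. COL1A2 was at -0.96 ± 0.23 (SE; unadjusted p = 0.00041, adjusted p = 0.7569, limma), and COL1A1 and COL3A1 were also under an unadjusted 0.05. The summed deposited intensity of the 6 markers read ran from 42101 to 69658 in old males, against 72403 to 106390 in young males. These sums were not normalised between arrays, whose median intensities ran from 144.2 to 264.1. In old females all 5 tested markers had a lower mean. Smooth muscle markers had 4 higher and 8 lower means in old males, and macrophage markers 6 higher and 4 lower. Of the smooth muscle markers only DES was under an unadjusted 0.05, at 1.62 ± 0.62 (SE; unadjusted p = 0.016, limma). The part of these markers in the values of the 8 genes was not tested.

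The covariation of the 8 genes was measured over the 21 samples after each group's mean had been subtracted. The permutations shuffled these deviations freely over all 21 samples, although for some genes the spread differed between groups. The permutation p-values may therefore be too small. Of the 28 pairs, 25 had a positive Pearson correlation and 3, all with SQLE, a negative one, and the median r was 0.36. That median rested on old male 4: it was 0.10 without this sample and 0.13 in the 15 samples outside the divergent arrays, where 21 pairs were positive. Within the divergent samples alone no such value can be had, since they leave 1 or 2 samples per group.

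INSIG1 was in each of the 3 pairs with an r above 0.7 in the 15 samples. INSIG1 and MSMO1 correlated at r = 0.76 (permutation p = 2e-05, adjusted over the 28 pairs 0.00056) and Spearman's rho = 0.80 (permutation p = 4e-05, adjusted 0.00112). Their r was 0.75 without the 2 samples farthest from the median of INSIG1 and 0.73 in the 15 samples. For each pair, the farthest samples were chosen by the gene named first, unless another is given. Among 6950 other genes, over all 21 samples, MSMO1 ranked number 6 by correlation with INSIG1, and INSIG1 ranked number 10 for MSMO1. INSIG1 and NSDHL correlated at r = 0.72 (adjusted permutation p = 0.00238) and rho = 0.57 (adjusted permutation p = 0.099), with r at 0.62 without the 2 farthest samples and 0.77 in the 15. INSIG1 and EBP had r = 0.43 over all samples (adjusted permutation p = 0.11), rho = 0.36 (adjusted permutation p = 0.32), and r = 0.71 in the 15.

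The other 3 pairs with an adjusted permutation p of r under 0.05 were weaker outside the divergent arrays. HMGCS1 and MSMO1 correlated at r = 0.64 (adjusted permutation p = 0.017) and rho = 0.54 (adjusted permutation p = 0.099), with r at 0.68 without the 2 farthest samples but 0.23 in the 15. FDPS and EBP correlated at r = 0.68 (adjusted permutation p = 0.017) and rho = 0.34 (adjusted permutation p = 0.35). Their r was 0.28 without the 2 samples farthest in FDPS and 0.25 in the 15, so this relation was much weaker without those samples. MSMO1 and NSDHL correlated at r = 0.62 (adjusted permutation p = 0.017) and rho = 0.51 (adjusted permutation p = 0.099), with r at 0.54 without the 2 farthest samples and 0.46 in the 15. By Spearman's rho only INSIG1 and MSMO1 had an adjusted p under 0.05.

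SQLE stood outside the others. Its r with FDPS, INSIG1, IDI1, MSMO1 and NSDHL lay between -0.10 and 0.16, and with EBP at -0.32. Only with HMGCS1 was it higher, at r = 0.45 (adjusted permutation p = 0.11) and rho = 0.50 (adjusted permutation p = 0.099), and this pair reached r = 0.68 in the 15 samples. IDI1 was likewise near 0 with HMGCS1, INSIG1, SQLE and MSMO1, at r of 0.04 to 0.16, and at 0.31 to 0.45 with FDPS, EBP and NSDHL. In the 15 samples its r turned to -0.23 with FDPS and -0.20 with EBP, and was 0.33 with NSDHL. Without the 2 samples farthest in FDPS, the r of IDI1 with FDPS was -0.14. Without the 2 farthest in IDI1, its r with EBP was 0.02.

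**Figure D3:**
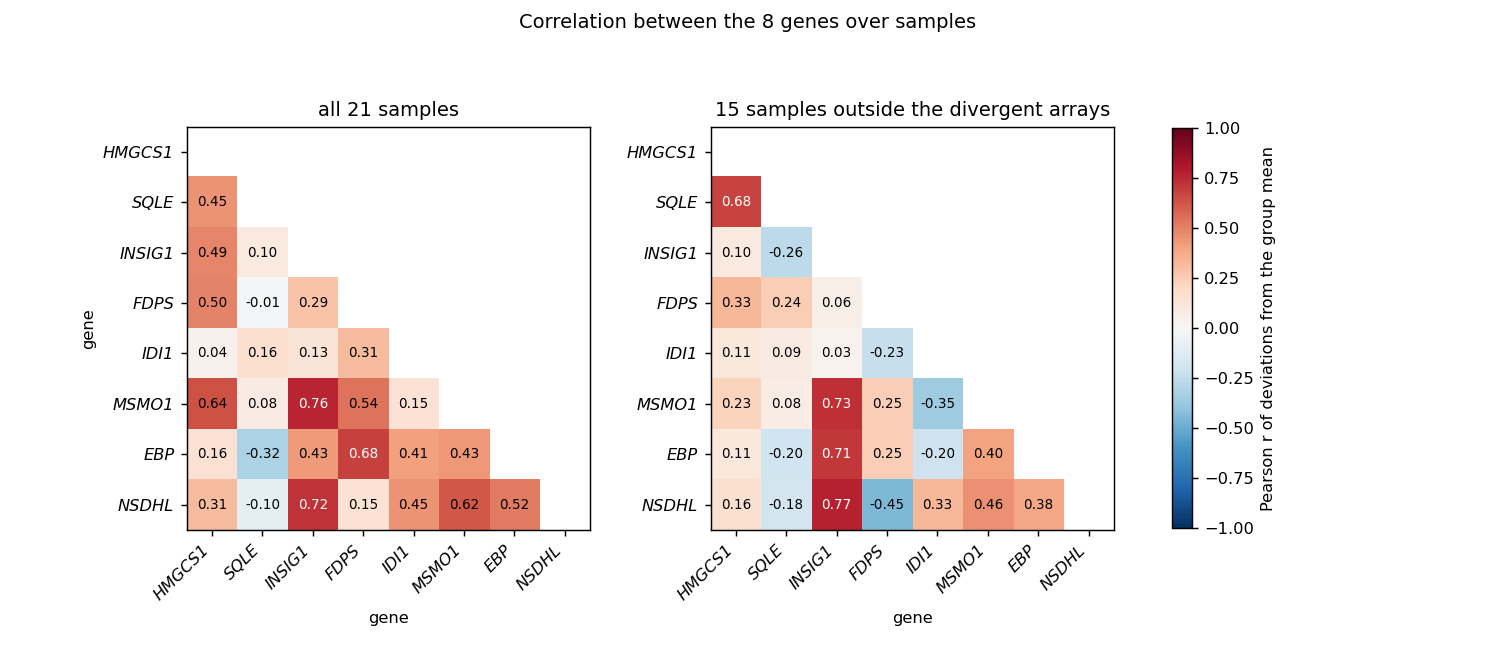
Pearson r between each pair of the 8 genes (rows and columns), computed on deviations from the group mean, over all 21 samples (left) and over the 15 samples outside the divergent arrays (right); colour runs from -1 to 1 and each cell prints its r. The pairs of INSIG1 with MSMO1 and NSDHL are above 0.7 in both panels, whereas HMGCS1 with MSMO1 and FDPS with EBP are above 0.6 only in the left one.

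The pairs were set beside the correlation of each gene with all tested genes. For INSIG1, MSMO1, EBP, NSDHL, HMGCS1 and FDPS, 5 of the 7 other members had an r above the upper quartile of that gene's r with all tested genes. For SQLE and IDI1, 2 of the 7 did. This comparison was made over all 21 samples, old male 4 included, and not in the 15. The genes closest to the mean of the 8 were SUCLA2 (r = 0.93 over 21 samples, 0.84 in the 15), NDUFA6 (0.90 and 0.77), CHCHD3 (0.90 and 0.85), MRPS18B, WIPI2, GOT1, ETFDH and PYGM, the last 5 at 0.88 to 0.89 over 21 samples. Their values in the 15 were 0.74 to 0.81. By single gene, UQCRC2 (0.86 over 21 samples, 0.81 in the 15) and SUCLA2 (0.80 and 0.85) were closest to INSIG1, and ACAT1 (0.92 and 0.92) and IMMT (0.89 and 0.78) to NSDHL. MAML1 (0.89 and 0.76) and ITIH2 (0.86 and 0.82) were closest to IDI1, and EVL (0.83 and 0.70) and TBC1D16 (0.81 and 0.70) to EBP. NDUFA6 (0.86 and 0.57) and SUCLA2 (0.85 and 0.60) were closest to MSMO1, and IL15 (0.83 and 0.62) and MRPL3 (0.80 and 0.48) to FDPS. MYNN (0.85 and 0.76) and NIPSNAP2 (0.79 and 0.53) were closest to HMGCS1, and APH1B (0.79 and 0.32) and PTGES2 (0.77 and 0.56) to SQLE. Except for INSIG1 with SUCLA2 and NSDHL with ACAT1, the r of each of these single-gene pairs was lower in the 15 samples.

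Of 16 relations of the 8 genes with tissue measures, NSDHL with the adipocyte marker mean was the strongest, at r = 0.60 (adjusted permutation p = 0.035) and rho = 0.75 (adjusted permutation p = 0.0022). Its r was 0.61 without the 2 samples farthest in the adipocyte mean, and 0.70 in the 15. IDI1 correlated with the adipocyte mean at r = 0.57 (adjusted permutation p = 0.035) and rho = 0.59 (adjusted permutation p = 0.044), and r was 0.56 without the 2 farthest samples but 0.19 in the 15. IDI1 also correlated with the log2 ratio between actin control probe sets at the 3′ and 5′ ends of the transcript, a measure of RNA or labelling quality, at r = 0.57 (adjusted permutation p = 0.035) and rho = 0.55 (adjusted permutation p = 0.063), and here r was 0.08 in the 15. Their part in the results of these genes was not tested further.

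The samples with the highest INSIG1 also had high UCP1, the brown adipocyte uncoupling protein, which was singled out after the values were seen. INSIG1 and UCP1 read 11.77 and 11.24 in old male 5, 11.55 and 12.22 in old male 4, 12.23 and 12.0 in old female 5, and 11.56 and 10.75 in young female 6. High UCP1 did not always go with the highest INSIG1: young female 2 read 10.45 and 13.27, and old female 6 read 9.83 and 11.52. The remaining 15 samples had UCP1 between 5.26 and 8.56 and INSIG1 between 8.79 and 10.35. UCP1 fell into separate clusters, so no correlation is given. In the male comparison, UCP1 ran from 5.26 to 12.22 in old males and from 5.46 to 6.89 in young males. With UCP1 as a covariate, added after seeing the data, INSIG1 was 0.14 higher in old males, NSDHL 0.19 and EBP 0.49, and the median of the 8 genes was 0.27. MSMO1 was 0.84 higher and FDPS 0.47 (unadjusted p = 0.035 and 0.026, limma). UCP1 was singled out from the samples with high INSIG1, so a smaller INSIG1 difference with it follows in part from that choice. No young male had high UCP1, so in males high UCP1 cannot be told apart from old age. The covariate was also fitted as a straight line although UCP1 fell into clusters. These values are therefore no test of a part of UCP1.

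**Figure D4:**
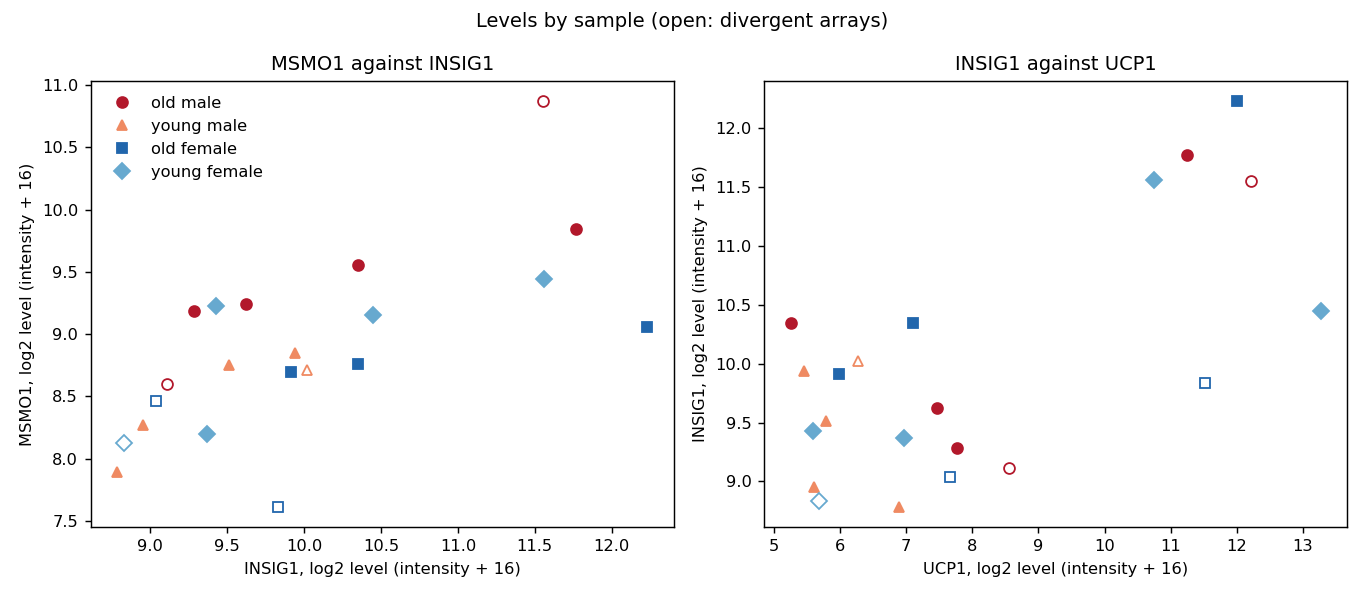
Left, log2 level of MSMO1 (y axis) against INSIG1 (x axis) in each of 21 samples; right, log2 level of INSIG1 (y axis) against UCP1 (x axis); symbols and colours mark the group and open symbols samples from divergent arrays. The 4 samples with INSIG1 above 11 all have UCP1 above 10, and 2 more samples have UCP1 above 10 with INSIG1 at 9.83 and 10.45.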

How the data were processed

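The authors deposited 1 intensity per probe set and array on a linear scale, for 22277 probe sets. The probe summary and array scaling are not given in the sources used. Array medians of the deposited intensities ran from 144.2 to 264.1, and the number of arrays limits the precision. Human probes read monkey RNA, which can lower a probe set on all arrays alike.

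Groups came from the sample titles. The 62 control probe sets were left out, log2(intensity + 16) was quantile normalised, near-identical arrays (correlation of deviations above 0.65 over probe sets passing the filter) were averaged, and arrays with a median correlation below 0.85 were called divergent. Probe sets with a mean at or above the median, 11108, were tested in 21 samples with limma 3.58.1 in R 4.3.3 (group means, empirical Bayes with trend, Benjamini-Hochberg, threshold 0.05, 2-sided). The fit was tested on simulated data. Correlations used 100000 permutations, 2-sided. Alternatives covered scaling, pseudocount, filter, array weights, covariates, blocks and left-out samples.

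The platform annotation gave 1 symbol to 19064 probe sets, several to 1043 and none to 2108. The 8 genes and all lists were chosen with earlier results of these data known. All 8 were named in the text, as were up to 3 genes of each other list with the smallest p in a comparison, the 8 genes most like the mean of the 8, and the 2 most like each member. No sequence and no coordinates were used here.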

Additional observations from a re-analysis of the deposited data

Results flagged for a closer look

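SQLE in old male 2, on its other tested probe set, was far from the rest of its group, at a log2 level of 6.456, against 7.998 for the nearest and 8.452 for the highest of the 6 old males. The gap was 0.773 of the range of the group. Old male 2 is a divergent sample, and on the brighter SQLE probe set it was the highest of the old males, at 9.12. In all, 48 groups of a member's probe set were examined, and chance sets about 1 in 20 groups apart in this way.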

How the results depend on the processing

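The 2 probe sets called in males were 0 with median centring, a pseudocount of 64, no filter, the adipocyte or UCP1 covariate or the mean of all probe sets of a gene, 1 with the actin covariate and 20 with array weights, and 0 to 2 with 1 sample left out. The 3 members under an unadjusted 0.05 in males were 5 with array weights, 2 with the UCP1 covariate (EBP at 0.49, unadjusted p = 0.0502, limma), 2 with the mean of all probe sets of a gene (EBP at 0.38, unadjusted p = 0.097, limma), and 3 to 4 with 1 sample left out. The dimmer EBP probe set in males turned to -0.13 with the replicate block and -0.0438 with the adipocyte covariate (-0.13 to 0.22 with 1 sample left out).

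In females, HMGCS1 turned to 0.0016 with 24 arrays, with or without the replicate block, 0.13 without the divergent samples, 0.0057 with array weights, 0.0376 with the actin covariate and 0.0019 as a mean of probe sets. SQLE turned to 0.0342 and NSDHL to -0.10 without the divergent samples. EBP turned to -0.13 without them, -0.0356 with array weights and -0.0902 as a mean of probe sets. With 1 sample left out, HMGCS1 ran from -0.26 to 0.0161, INSIG1 from -0.14 (without old female 5) to 0.75, and NSDHL from -0.0942 to 0.62.

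Averaged over the sexes, the 1 member under 0.05 was 2 with 24 arrays, with or without the block, 0 as a mean of probe sets or with the UCP1 covariate, and 1 to 2 with 1 sample left out. The 0 probe sets called were 1 without the divergent samples, with the replicate block, and with 24 arrays and the block. Between the sexes, the 2 members under 0.05 were 1 with median centring or the replicate block, 3 without the divergent samples and 1 to 2 with 1 sample left out, and INSIG1 turned to -0.11 and NSDHL to -0.0215 with the UCP1 covariate.

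The median r of the 28 pairs was 0.10 (without old male 4) to 0.42 with 1 sample left out, and 0.43 without subtracting group means. The same-numbered samples correlated at -0.425 to 0.509 (median 0.045) and others at -0.497 to 0.505, so they share only a number. With the pairs averaged, old male 4 is the only sample of its number, so the replicate block over 21 samples leaves it out and the male median was 0.43 there. The cause of these changes was not tested. The replicate block on 24 arrays, the UCP1 covariate, the fit without divergent males and the dimmer probe sets were added after seeing the data.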
